A study of Mus musculus with 14 samples.

Results

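Rhbg and 9 other genes of the pericentral liver zone were followed in the liver and kidney of mice on a normal or a high salt diet. The genes were taken by symbol, and all 10 were found among the 22263 genes of the liver and kidney count tables. Rhbg was selected on its lower CPM in the high salt liver libraries (CPM are counts scaled to a common library size), so its liver values are a description and are not tested. The other members, Glul, Oat, Slc1a2, Lgr5, Axin2, Tbx3, Rnf43, Znrf3 and Gulo, were named to ask whether they follow it. They were chosen with earlier results of these data known.

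All mice were adult transgenic males of 12 weeks with the genotype Hap -6A, a haplotype of the human angiotensinogen gene, and the controls carry it too. There were 4 liver libraries and 3 kidney libraries per diet. The normal diet groups are called normal and the others high salt. The length of the diet, its salt content and the strain are not given in the sources used here. The labels do not say that libraries of 1 group came from different animals, so p-values measure the spread between these libraries, which may be technical.

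The liver lobule is zoned between the portal triad, where blood enters, and the central vein, where it leaves. Hepatocytes beside the central vein receive Wnt ligands and R-spondins from the vein's endothelium. Wnt signalling there stabilises beta-catenin, which acts with TCF/LEF factors on pericentral genes. These cells take up the ammonia that the periportal urea cycle has left and fix it as glutamine. Rhbg is an ammonia channel of the Rh glycoprotein family. Glul is glutamine synthetase, Oat is ornithine aminotransferase and Slc1a2 is a glutamate transporter. Lgr5 is an R-spondin receptor, and Rnf43 and Znrf3 are ubiquitin ligases that remove Wnt receptors from the membrane. Axin2 is a feedback inhibitor of beta-catenin, Tbx3 is a transcription factor and Gulo makes the last step of vitamin C synthesis.

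Liver libraries held from 37267778 to 51487382 counts and kidney libraries from 16046094 to 22004927. Normal liver libraries are numbered 1 to 4 by their titles. The numbers 5 to 8 of the high salt liver libraries come from the table's header, are found in no title and serve only as names. Transcripts of the mitochondrial genome took 2.30% and 2.06% of the counts in normal liver libraries 1 and 2, and 11.3% to 29.6% in the other 6. High salt liver libraries 5 and 6 differed least of all pairs within a liver group, with a chi-square per gene of 1.59 against 9.83 to 62.8 in the 11 other pairs. Liver differences were therefore also computed with libraries 5 and 6 summed to 1 and without normal libraries 1 and 2, and these values stand beside the results they move. The tissue labels were checked on markers. The 5 hepatocyte markers, Alb among them, summed to at least 51060 CPM in every liver library and to at most 103 CPM in every kidney library.

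Promoters were searched for the members that have an entry among the RefSeq promoters. Of the 10 members, 5 had one: Glul, Slc1a2, Oat, Rnf43 and Axin2. The windows of Rnf43 were searched but are not printed. Each line gives the 250 bases before an annotated start, 5′ to 3′ on the gene's strand (GRCm38.p6). Capitals mark the core CTTTGA bound by TCF/LEF factors, or its reverse complement TCAAAG. That complement can also lie inside the element bound by HNF4, which was searched on both strands as CAAAGTCCA. Oat is at chr7:132576399-132576648 (minus strand), Glul at chr1:153899679-153899928, Axin2 at chr11:108920099-108920348 and Slc1a2 at chr2:102706188-102706437 (all plus strand).
Oat: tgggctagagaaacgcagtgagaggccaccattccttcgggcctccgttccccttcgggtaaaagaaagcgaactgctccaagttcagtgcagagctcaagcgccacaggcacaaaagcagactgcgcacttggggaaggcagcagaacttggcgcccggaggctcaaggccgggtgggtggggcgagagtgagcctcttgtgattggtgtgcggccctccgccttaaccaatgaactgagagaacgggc
Glul: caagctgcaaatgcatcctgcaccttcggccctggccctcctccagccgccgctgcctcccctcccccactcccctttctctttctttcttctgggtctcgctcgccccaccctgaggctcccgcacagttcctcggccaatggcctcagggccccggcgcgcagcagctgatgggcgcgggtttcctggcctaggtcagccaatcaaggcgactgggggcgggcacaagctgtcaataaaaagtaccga
Axin2: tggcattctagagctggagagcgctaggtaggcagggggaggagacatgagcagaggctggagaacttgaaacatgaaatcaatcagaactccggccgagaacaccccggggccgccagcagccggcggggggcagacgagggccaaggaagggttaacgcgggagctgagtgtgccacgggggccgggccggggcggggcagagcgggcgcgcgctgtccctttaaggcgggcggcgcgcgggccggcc
Slc1a2: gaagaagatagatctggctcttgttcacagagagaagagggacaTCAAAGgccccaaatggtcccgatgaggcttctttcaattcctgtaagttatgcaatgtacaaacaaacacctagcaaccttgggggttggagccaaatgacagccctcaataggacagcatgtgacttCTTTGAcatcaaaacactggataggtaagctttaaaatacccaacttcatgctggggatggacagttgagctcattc
The TCF/LEF core was found in Slc1a2, with 2 matches, and in none of the other windows of these 5 genes. The Slc1a2 window lies inside the gene, whose body begins at base 102658659 of chromosome 2. The core occurs in 13.8% of 32851 promoter windows of this length. The HNF4 element was found in none of the 5 genes and in 0.384% of all windows. A match is a description of letters, and a window without one says nothing of the factor.

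Rhbg was lower in every high salt liver library than in any normal one. It is annotated on chromosome 3 from 88242874 to 88254709 on the minus strand (GENCODE M21, GRCm38), where Gm38392 overlaps it on the same strand, and how the reads were shared out between both genes is not known. Rhbg stood at 12.9, 9.29, 9.94 and 17.7 CPM in normal libraries 1 to 4. In high salt libraries 5 to 8 it stood at 2.24, 3.00, 2.68 and 2.24 CPM. The lowest normal library thus held about 3 times the CPM of the highest high salt library. These values rest on 316 to 737 counts per normal library and 126.3 to 144.9 counts per high salt library. The means were 12.5 ± 3.84 and 2.54 ± 0.371 CPM (SD, n = 4 each), which is 4.91-fold lower on high salt. The fitted log2 difference was -2.30 with a standard error (SE) of 0.24. It was -2.44 without normal libraries 1 and 2, and leaving out each library in turn gave -2.42 to -2.09.

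**Figure D1:**
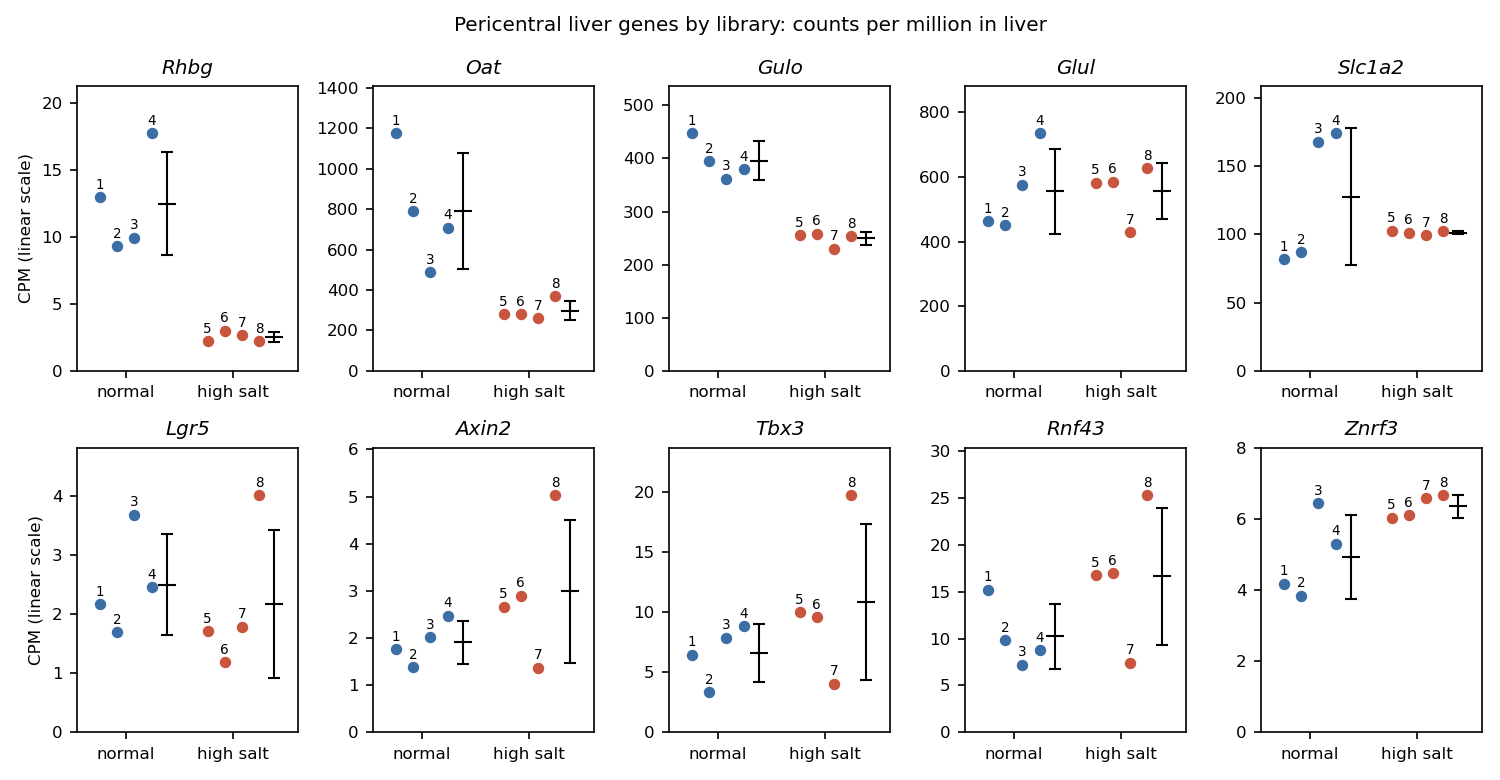
CPM in each liver library for the 10 genes, on linear axes that start at 0. Points are libraries with their numbers, and bars give the mean ± SD of 4 libraries. Rhbg, Oat and Gulo show no overlap between the diets, while the high salt values of Axin2, Tbx3 and Rnf43 spread from library 7 to library 8.

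Among the other 9 members, 1 passed in liver with the quasi-likelihood test of edgeR at an adjusted p-value under 0.05, against 1.00% of the 15130 genes tested. This gene was Oat. No member was called higher, against 0.595% of all genes, and 2 members had an unadjusted p under 0.05, against 21.2% of all genes. The median log2 difference of the 9 was -0.001, against -0.023 over all genes tested, and 5 of the 9 lay below 0, against 52.0% of all genes. In 2 of the 9, Oat and Gulo, every high salt library lay below every normal one, against 6.03% of all genes, and 12.5% of all genes had no overlap in either direction. In bulk tissue, fewer pericentral cells and less RNA per cell cannot be told apart.

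Oat makes glutamate semialdehyde from ornithine in the mitochondria of pericentral cells. It is on chromosome 7 from 132557478 to 132576398, minus strand, inside the long Fgfr2 gene model of GENCODE M21. Normal libraries 1 to 4 held 1174, 791, 489 and 709 CPM of Oat. High salt libraries 5 to 8 held 282, 280, 262 and 369 CPM. The diets did not overlap, and normal library 3, the lowest of its group, was the nearest to high salt. Oat fell on high salt. Its means were 791 ± 286 CPM and 298 ± 48.1 CPM (SD, n = 4 each), with a log2 difference of -1.41 with an SE of 0.27 (edgeR adjusted p = 0.0451). The call was lost without normal library 1 or 2 and without high salt library 5, 6, 7 or 8 (edgeR adjusted p from 0.071 to 0.201). It was also lost with libraries 5 and 6 summed (log2 difference -1.38, edgeR adjusted p = 0.189) and without normal libraries 1 and 2 together (log2 difference -1.004, edgeR adjusted p = 0.0991). Nor was Oat called in the edgeR fit of all libraries with no filter on low counts.

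Gulo, L-gulonolactone oxidase, is on chromosome 14 from 65986786 to 66009207, minus strand. It stood at 447, 395, 362 and 380 CPM in normal libraries 1 to 4. It stood at 255, 259, 230 and 254 CPM in high salt libraries 5 to 8. The diets were apart by more than 100 CPM in every pair of libraries. The means were 396 ± 36.6 and 249 ± 13.1 CPM (SD, n = 4 each), and the log2 difference was -0.67 with an SE of 0.15. Adjusted over all genes tested, it missed the threshold (edgeR adjusted p = 0.0694). DESeq2 called it (log2 difference -0.68, DESeq2 adjusted p = 0.000161). So did edgeR without normal library 3 (adjusted p = 0.0405) and without normal library 4 (adjusted p = 0.0447). With libraries 5 and 6 summed, and without normal libraries 1 and 2 together, it did not pass.

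Glul, the enzyme that defines the innermost pericentral cells, had nearly equal means. It is on chromosome 1 from 153899944 to 153909723, plus strand. Its values were 464, 451, 576 and 734 CPM in normal libraries 1 to 4 and 583, 585, 429 and 627 CPM in high salt libraries 5 to 8. The diets overlapped over most of their range, with normal library 4 the highest and high salt library 7 the lowest. The means were 556 ± 131 and 556 ± 86.9 CPM (SD, n = 4 each). The log2 difference was -0.001 with an SE of 0.22 (edgeR adjusted p = 0.999), and its sign changed in 8 of 19 alternatives. Without normal libraries 1 and 2 it was -0.24 and with libraries 5 and 6 summed -0.026.

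Slc1a2, which brings glutamate into these cells, did not pass either. It is on chromosome 2 from 102658659 to 102790784, plus strand. Normal libraries 1 to 4 held 81.5, 87.1, 168 and 174 CPM. High salt libraries 5 to 8 held 103, 101, 99.2 and 102.1 CPM, inside the normal range. The normal libraries thus fell apart in the same way as their mitochondrial shares, with libraries 1 and 2 low, and the part of this in the result was not tested. The log2 difference was -0.33 with an SE of 0.26 (edgeR adjusted p = 0.472), and -0.75 without normal libraries 1 and 2 (edgeR adjusted p = 0.0755).

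Among the members, none of the Wnt genes Lgr5, Axin2, Tbx3, Rnf43 and Znrf3 passed. Axin2, Tbx3, Rnf43 and Znrf3 had positive log2 differences of 0.65, 0.71, 0.70 and 0.36, with SEs of 0.37, 0.44, 0.35 and 0.20. The edgeR adjusted p-values were 0.335, 0.374, 0.283 and 0.317. Lgr5 had a log2 difference of -0.20 with an SE of 0.40 (edgeR adjusted p = 0.80). These signs were kept in all 19 alternatives for the first 4 genes, and Lgr5 changed sign in 2.

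The high salt libraries differed among themselves in these genes. Axin2 stood at 2.66, 2.90, 1.37 and 5.03 CPM in high salt libraries 5 to 8, and at 1.76, 1.39, 2.01 and 2.48 CPM in normal libraries 1 to 4. Tbx3 stood at 10.03, 9.62, 4.07 and 19.8 CPM in the high salt libraries and at 6.47, 3.35, 7.89 and 8.87 CPM in the normal ones. Rnf43 stood at 16.8, 16.95, 7.44 and 25.3 CPM in the high salt libraries and at 15.2, 9.84, 7.20 and 8.80 CPM in the normal ones. In all 3 genes library 8 was the highest and library 7 the lowest of the high salt group, and libraries 5 and 6 lay together between them. Library 7 was below the normal mean, and library 8 was above every normal library. This order, 8 highest and 7 lowest, held for 5 of the 10 members, against 13.1% of all genes tested in liver, and library 8 was the highest for 7 of the 10, against 27.0%. The count includes Glul and Oat, and it is a description, since the order was noticed in these values.

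Lgr5 was also highest in library 8. It stood at 1.70, 1.18, 1.79 and 4.01 CPM in high salt libraries 5 to 8 and at 2.16, 1.69, 3.68 and 2.45 CPM in normal libraries 1 to 4. Its lowest library held 57 counts. Without high salt library 8 the log2 differences were -0.68 for Lgr5, 0.28 for Axin2, 0.25 for Tbx3 and 0.42 for Rnf43, so the positive values of the last 3 were smaller, and that of Lgr5 lay further below 0, without this 1 library. Without normal libraries 1 and 2 the log2 differences were -0.49 for Lgr5, 0.42 for Axin2, 0.38 for Tbx3, 1.05 for Rnf43 and 0.11 for Znrf3. With libraries 5 and 6 summed they were -0.047, 0.68, 0.76, 0.69 and 0.38 in the same order. Znrf3 varied least in this group, at 6.04, 6.11, 6.59 and 6.68 CPM on high salt. On the normal diet Znrf3 stood at 4.18, 3.84, 6.45 and 5.31 CPM, so normal library 3 overlapped the high salt values.

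**Figure D2:**
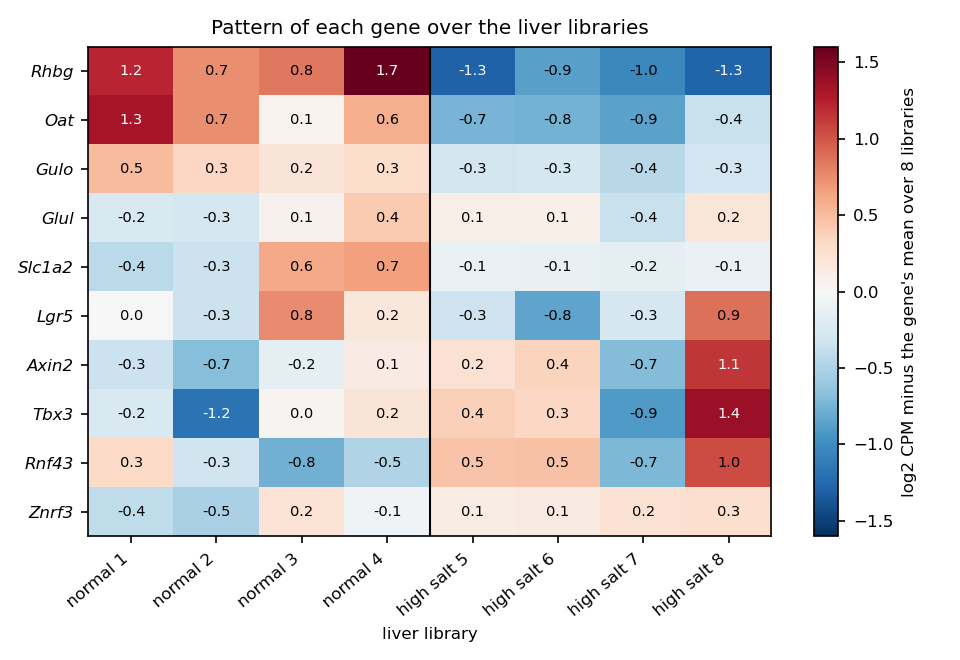
Each gene's log2 CPM in each liver library minus the gene's mean over the 8 libraries, with normal libraries on the left and high salt libraries on the right of the line. Rhbg, Oat and Gulo are above their mean in all 4 normal libraries, while Axin2, Tbx3 and Rnf43 are highest in high salt library 8.

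The genes whose pattern over the 8 liver libraries was nearest to that of Rhbg were sought among the 12184 genes whose mean count per liver library reached 50. Nearness was the root mean square difference of log2 CPM after each gene was centred on its own mean. The nearest 5 were Nnmt (0.39), Selenbp2 (0.43), Nucb2 (0.44), Sdf2l1 (0.45) and Capn8 (0.45). Nnmt, which methylates nicotinamide, stood at 278.5 to 465 CPM in normal libraries and 56.9 to 82.4 CPM in high salt ones. Among the members Oat came closest, at 0.61 and rank 29, and Gulo followed at 0.84 and rank 289. Tbx3 was farthest, at 1.58 and rank 11198. Such ranks favour genes with a diet difference of like size and carry no test.

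A wider list of 28 pericentral hepatocyte genes was described beside the members. Like the lists that follow, it was chosen with earlier results of these data known. Its shares beside those of all genes are therefore a description and no independent support. Of these, 23 lay below 0 on high salt, with a median log2 difference of -0.68, against 52.0% and -0.023 over all genes tested. Of the 28, 16 had an unadjusted p under 0.05, against 21.2% of all genes. The edgeR test called 1 of the 28, lower, against 0.410% of all genes, and none higher. This was Cyp1a2, a drug-metabolising cytochrome P450, which fell by 1.07 on the log2 scale, with means of 718 ± 149 and 342 ± 41.0 CPM (SD, n = 4 each) (edgeR adjusted p = 0.045). Cyp2e1, which oxidises ethanol, had means of 8136 ± 1577 and 4442 ± 731 CPM, normal diet first. Its diets did not overlap but it did not pass (log2 difference -0.87, edgeR adjusted p = 0.114). Cyp2a5 and Cyp2c29 had log2 differences of -1.28 and -0.92 with overlapping diets (edgeR adjusted p = 0.0867 and 0.172). Cyp3a11 had one of -1.22 with an SE of 0.72 (edgeR adjusted p = 0.352). Its normal libraries ran from 378 to 11691 CPM, around the 2295 to 3978 CPM of the high salt ones. Every high salt library lay below every normal one in 6 of the 28 genes, against 6.03% of all genes.

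The size of this list's difference moved with the libraries left out. The median was -0.67 with libraries 5 and 6 summed, where 0 genes were called and 14 had an unadjusted p-value under 0.05. Without normal libraries 1 and 2 it was -0.37, with 20 of 28 below 0, 0 called and 11 at an unadjusted p under 0.05. DESeq2 called 10 of the 28, all lower, in a fit that called 559 of 19660 genes lower and 525 higher. Without normal library 4 edgeR called 9 of the 28, and 409 of all 15270 genes tested. Without normal library 3 it called 4 of the 28, and 765 of all 15471 genes. It called 0 of the 28 without normal library 1 or 2 and without any 1 of the high salt libraries.

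Periportal genes, which mark the opposite end of the lobule, had a median closer to that of all genes than the pericentral list. Of 22, 17 lay below 0, against 52.0% of all genes. The median log2 difference was -0.17, against -0.023 over all genes, and 0 passed with edgeR, against 1.00% of all genes. Of them 2 had an unadjusted p under 0.05, against 21.2% of all genes. DESeq2 called 1 of the 22, lower, in a fit that called 559 of 19660 genes lower. Without high salt library 8 the median was -0.088, and without normal library 3 edgeR called 1. Cps1, which starts the urea cycle, had means of 2265 ± 713 and 2001 ± 341 CPM, normal diet first (log2 difference -0.18). Pck1, of gluconeogenesis, had a log2 difference of -0.23, Arg1, the last urea cycle enzyme, one of -0.46 and Pigr, a receptor that carries antibodies into bile, one of -0.092. Without normal libraries 1 and 2 the median was 0.041 and 8 of the 22 lay below 0. Whether the pericentral and periportal lists differed was not tested.

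**Figure D3:**
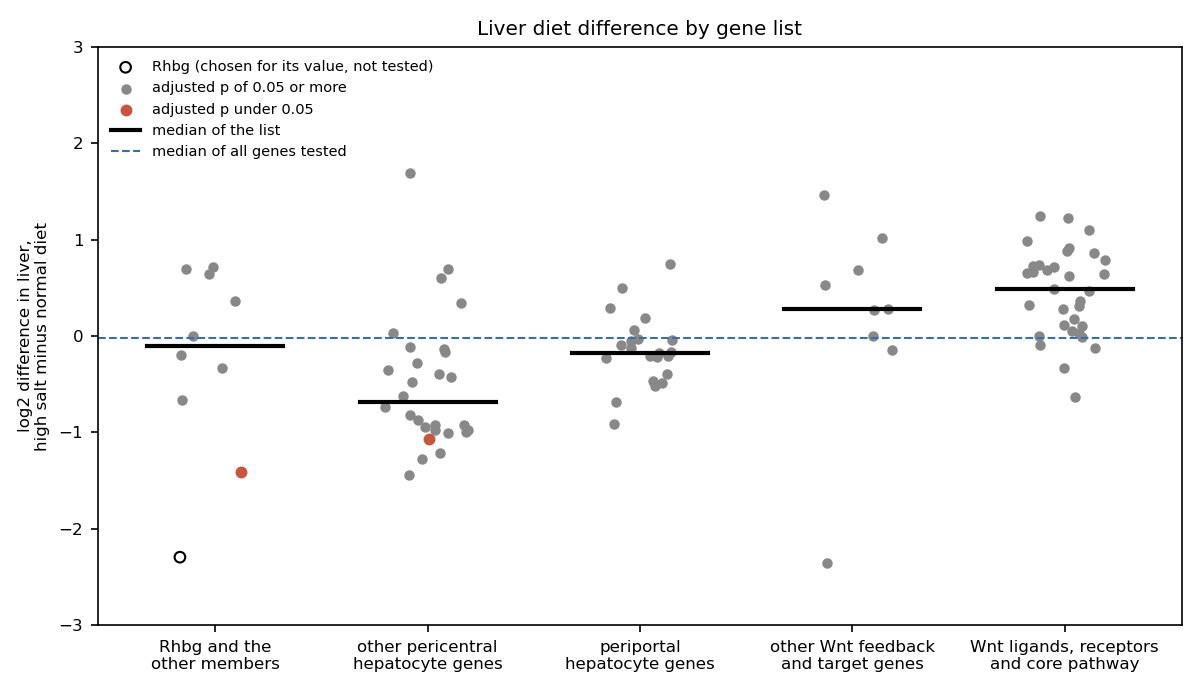
Log2 difference between high salt and normal diet liver for the genes of 5 lists, with 1 point per gene tested and a thick line at each list's median. The pericentral list has its median at -0.68, and the list of Wnt ligands, receptors, core pathway genes and inhibitors at 0.49. The dashed line marks the median of all genes tested at -0.023.

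Genes of the Wnt pathway were described as well. The list holds genes that carry the signal and genes that oppose it, so its median gives no direction for the signal. Of 47 ligands, R-spondins, receptors, core members and inhibitors, 33 passed the filter on low counts. Of these 28 lay above 0 with a median log2 difference of 0.49, against 52.0% of all genes below 0 and a median of -0.023. With edgeR 0 passed and 13 had an unadjusted p under 0.05, against 21.2% of all genes. DESeq2 called 2 of 41, both higher, in a fit that called 525 of 19660 genes higher, and edgeR without normal library 3 called 1. With libraries 5 and 6 summed the median was 0.51 and 5 had an unadjusted p under 0.05. Without normal libraries 1 and 2 the median was 0.31 and 7 of 34 did. Ctnnb1, beta-catenin itself, had means of 107 ± 14.7 and 132 ± 13.9 CPM, normal diet first (log2 difference 0.31, edgeR adjusted p = 0.288). Dvl1, which relays the signal inside the cell, had a log2 difference of 0.10. Csnk1a1, a kinase of the complex that breaks down beta-catenin, had one of 0.052, and Lgr4, an R-spondin receptor, one of -0.34 (edgeR adjusted p = 0.268). The ligands of the central vein were looked at by role, outside the rule for named genes. Wnt2 had a log2 difference of -0.64, Wnt9b one of 0.17 and the R-spondin Rspo3 one of 0.46, none of which passed (edgeR adjusted p = 0.201, 0.822 and 0.322). Of 16 Wnt feedback and target genes outside the members 9 passed the filter. Of these 7 lay above 0, with a median of 0.28, and 0 passed with edgeR, while 3 had an unadjusted p under 0.05, against 21.2% of all genes, and DESeq2 called 0. The median was 0.15 without normal library 4, 0.46 without high salt library 5, 0.40 with libraries 5 and 6 summed and 0.73 without normal libraries 1 and 2. These 3, named after their values were seen, were Ccnd1 (1.02, edgeR adjusted p = 0.194), Tcf7 (0.69, edgeR adjusted p = 0.154) and the secreted inhibitor Dkk4 (-2.35, edgeR adjusted p = 0.197). Dkk4 was low and overlapped between the diets, at 0.063 to 3.79 CPM in normal libraries and 0.187 to 0.291 CPM in high salt ones. Notum, a secreted Wnt inhibitor, was at 17.6 ± 8.17 and 17.6 ± 2.01 CPM (SD, n = 4 each). Myc, a growth regulator, had a log2 difference of 1.47 with an SE of 1.05 (edgeR adjusted p = 0.437). Its high salt mean, 8.36 ± 14.1 CPM (SD, n = 4), rested on 1 library at 29.5 CPM. The lowest high salt library was at 1.14 CPM, and normal libraries ran from 1.17 to 5.06 CPM. Cd44, an adhesion receptor, had a log2 difference of -0.15.

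Neighbouring steps in ammonia, ornithine and vitamin C handling gave 0 edgeR calls, against 1.00% of all genes tested. Of 17 tested genes of ammonia, glutamine and glutamate handling 9 lay below 0, with a median of -0.04, and 4 had an unadjusted p under 0.05, against 21.2% of all genes. The median was 0.017 with libraries 5 and 6 summed and 0.0088 without normal libraries 1 and 2, and edgeR called 1 gene without normal library 3 or without normal library 4. Glud1, glutamate dehydrogenase, had 864 ± 231 and 717 ± 68.8 CPM, and Slc38a3, a glutamine transporter, 1056 ± 83.8 and 1273 ± 140 CPM. Slc38a4, an amino acid transporter, and Gpt2, an alanine transaminase, had log2 differences of -0.04 and -0.38. Of 10 tested genes of ornithine and proline metabolism 8 lay below 0, with a median of -0.31 and 3 at an unadjusted p under 0.05. The median was -0.13 without normal library 2, with 1 gene at an unadjusted p under 0.05, and -0.19 without normal libraries 1 and 2. It was -0.47 without normal library 3, and edgeR called 2 genes without normal library 4. Slc25a15, which carries ornithine into mitochondria, had 277 ± 36.3 and 182 ± 18.4 CPM with no overlap (log2 difference -0.61, edgeR adjusted p = 0.0989). The proline-degrading enzymes Aldh4a1 and Prodh had log2 differences of -0.15 and -0.35, and Prodh2, which acts on hydroxyproline, one of -0.37. Of 7 tested genes of vitamin C synthesis and transport 4 lay below 0, with a median of -0.34 and 3 at an unadjusted p under 0.05. Without normal libraries 1 and 2 the median was 0.12. Akr1a1 and Rgn, which act upstream of Gulo, had log2 differences of -0.60 and -0.47 (edgeR adjusted p = 0.194 and 0.323). Ugp2 and Ugdh, which act further upstream, had log2 differences above 0, of 0.46 and 0.22 (edgeR adjusted p = 0.465 and 0.673). DESeq2, which tested 20, 12 and 10 genes of these 3 lists, called 3, 1 and 0 of them. It called 1084 of all 19660 genes.

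Markers of other cells were measured beside these lists. The summed level of 5 hepatocyte markers was 51060 to 75277 CPM in normal liver and 88102 to 104716 CPM in high salt liver, with 0 markers called. The sum followed Alb, with means of 43963 ± 8323 and 74599 ± 7507 CPM and no overlap, normal diet first (SD, n = 4 each). The other 4 did not move as 1: Ttr had a log2 difference of 0.28, Apoa1 one of -0.15, Tat one of -0.81 and Serpina1c one of -0.63, the last with every high salt library below every normal one. The sum of 6 stellate and mesenchymal markers was 71.5 to 129 CPM and 137 to 161.7 CPM, and 3 of them had every high salt library above every normal one, against 6.42% of all genes. Endothelial markers summed to 52.9 to 119 CPM and 60.4 to 89.2 CPM, Kupffer cell markers to 90.4 to 189 CPM and 61.9 to 128 CPM, and bile duct markers to 32.2 to 47.4 CPM and 28.8 to 51.7 CPM. Lymphocyte and neutrophil markers reached 53.9 CPM in 1 normal library and at most 4.80 CPM on high salt. No marker of these lists passed with edgeR. The part of these markers in the results was not tested.

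In kidney Rhbg is known from connecting and collecting duct cells, among them the intercalated cells that secrete acid. Kidney was not used to choose Rhbg. Rhbg stood at 8.02, 4.38 and 4.66 CPM in normal kidney libraries 1 to 3 and at 4.14, 4.22 and 6.22 CPM in high salt kidney libraries 1 to 3. The diets overlapped, and normal library 1 was the highest. The log2 difference was -0.23 with an SE of 0.31 (edgeR adjusted p = 0.9996), and 0.11 without normal kidney library 1. Markers of intercalated cells summed to 50.5 to 104 CPM in normal kidney and 62.0 to 87.4 CPM in high salt kidney.

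No kidney member passed. Of the 10, 7 passed the filter on low counts, and 0 were called with edgeR (percent of the 15847 genes called: 0.00), 0 had an unadjusted p under 0.05 (2.01% of all genes did) and 0 were called by DESeq2. Glul, which is also made in the proximal tubule, stood at 293, 235 and 213 CPM in normal libraries and at 286, 195 and 307 CPM in high salt ones, a log2 difference of 0.09 with an SE of 0.25. Oat stood at 62.3, 71.1 and 68.3 CPM in normal libraries and at 57.5, 50.5 and 61.4 CPM in high salt ones. Its high salt libraries lay below the normal ones, with a log2 difference of -0.25 and an SE of 0.18 (edgeR adjusted p = 0.9996). Znrf3, at 9.19, 8.78 and 8.18 against 7.68, 6.62 and 5.86 CPM, did not overlap either (log2 difference -0.37, SE 0.20). These were 2 of the 7 genes, against 3.04% of all genes with every high salt library below every normal one and 6.88% with no overlap in either direction. Slc1a2, Tbx3 and Rnf43 overlapped between the diets, with log2 differences of 0.35, -0.019 and -0.003. Lgr5, Axin2 and Gulo were too low for the test, with 2 to 11, 4 to 15 and 1 to 7 counts per kidney library. Gulo had 2, 1 and 1 counts on the normal diet and 6, 7 and 4 on high salt, and no fold is given at such counts.

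**Figure D4:**
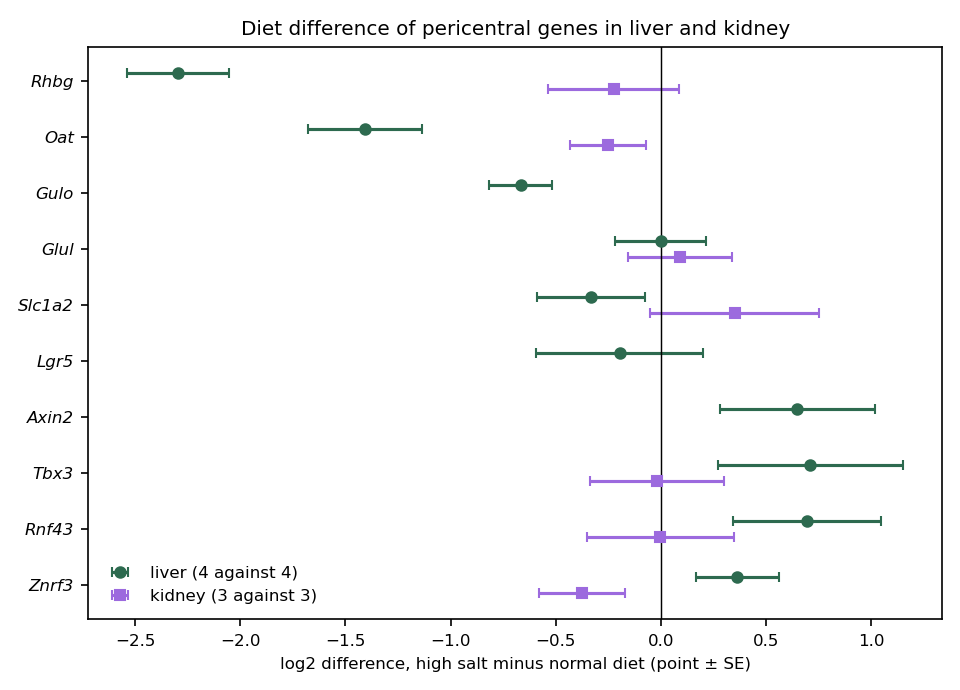
Log2 difference between high salt and normal diet for each gene in liver (circles, 4 against 4 libraries) and kidney (squares, 3 against 3), with bars of 1 SE from edgeR. Rhbg, Oat and Gulo lie left of 0 in liver, the 7 kidney values lie within 0.4 of 0, and Lgr5, Axin2 and Gulo have no kidney value.

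Tissue and diet were fitted together on the 17600 genes of both tables. The interaction, the liver difference minus the kidney difference, passed for 0 of the 9 members other than Rhbg with edgeR, against 0.00% of 16633 genes. It had an unadjusted p under 0.05 for 3 of the 9, against 10.1% of all genes, and DESeq2 called 0 of them. These 3, named after their values were seen, were Oat (-1.16, edgeR adjusted p = 0.348), Znrf3 (0.75, edgeR adjusted p = 0.391) and Gulo (-2.64, edgeR adjusted p = 0.114), whose kidney part rests on 1 to 7 counts. For Rhbg the interaction was -2.06 with an SE of 0.39, given as a description. A difference between the tissues in the response of these genes was therefore not shown.

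On a scale common to both tissues, Rhbg was highest in normal liver, at 14.7 ± 4.12 CPM (SD, n = 4). Normal kidney followed at 4.63 ± 1.64 CPM, high salt kidney at 3.96 ± 0.944 CPM (SD, n = 3 each) and high salt liver at 3.03 ± 0.438 CPM (SD, n = 4). The lowest normal liver library, at 11.4 CPM, was above the highest kidney library, at 6.52 CPM. The other neighbours in this order overlapped, so high salt liver was not apart from high salt kidney, whose lowest library was at 3.37 CPM against a liver maximum of 3.61 CPM.

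Between normal liver and normal kidney, 8 of the other 9 members were higher in liver with edgeR, against 32.9% of all genes tested, and 65.1% of all genes were called in either direction. The unadjusted p was under 0.05 for the same number of members, 8, and for 68.0% of all genes. In these 8 every normal liver library lay above every normal kidney library, against 29.8% of all genes. Slc1a2 differed by 6.13 on the log2 scale, Oat by 4.11, Lgr5 by 3.78, Rnf43 by 3.20, Axin2 by 2.43, Tbx3 by 1.88 and Glul by 1.70. The largest edgeR adjusted p of these 7 was 0.00192. Gulo was the eighth, at 471 ± 60.8 CPM in normal liver and 1 or 2 counts in each normal kidney library. Znrf3 was at 5.83 ± 1.18 CPM in liver and 7.11 ± 0.393 CPM in kidney, a log2 difference of -0.29 with an SE of 0.19 that did not pass (edgeR adjusted p = 0.201). With upper quartile scaling the median of all genes moved by -0.30 (by -0.12 with DESeq2), and Znrf3 was called lower in liver (-0.58, edgeR adjusted p = 0.022). Under this scaling 40.7% of the called genes were higher in liver, against 50.5% with the main scaling. Liver and kidney samples were not matched to animals by the labels.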

How the data were processed

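Liver and kidney RNA of transgenic mice was sequenced, and libraries came from a SMARTER mRNA kit, per the labels' protocols. The authors deposited expected counts per gene from a Partek expectation-maximisation quantification, per the file names, and a linear normalized signal for each gene. The submitters' processing notes name STAR 2.5.3a, Partek 7.0, DESeq2 and mm10, with no role. In liver the deposited signal equals the count times 1 factor per library (0.767 to 1.37). In kidney 2.68% to 4.81% of genes lay within 0.1% of 1 such factor, and how that signal was made is not given in the sources used here. In liver 99.4% of the gene names shared with GENCODE M21 (GRCm38) had the same start there. Of the liver values per library 55.2% to 62.6% were whole numbers. Per-sample columns not used numbered 0.

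In R 4.3.3 the expected counts, rounded to whole numbers, went into quasi-likelihood fits of edgeR 4.0.16 with TMM scaling and the filterByExpr filter by group. Each tissue was fitted apart with diet as the term. The interaction and the tissue difference came from 1 fit of 4 groups. Benjamini-Hochberg adjusted p-values under 0.05 over all genes tested were called. CPM use TMM library sizes, and the SE is the log2 difference over the root of the F statistic. The common biological coefficient of variation (replicate spread) was 0.314 for liver libraries and 0.30 for kidney libraries. Intervals are not given for counts, since reads without molecular identifiers do not stand for separate molecules. Scripts were tested on simulated data.

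Every member was named. Of each other list, genes past the threshold and the 4 highest in liver were named, with the 5 genes nearest to Rhbg in log2 CPM (prior count 2). Members and lists were chosen with earlier results of these data known. Alternatives were DESeq2 1.42.0, limma 3.58.1 on the deposited normalized values (pseudocounts of 1 and 0.1), other scalings and filters, all libraries in 1 fit, removal of mitochondrial transcripts, the replicate block, and left-out or summed libraries. The human transgene was not analysed here.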

Additional observations from a re-analysis of the deposited data

Results flagged for a closer look

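In 1 of the 20 liver groups of 4 libraries checked, 1 library lay far from the rest of its group, and chance gives about 1. Gulo stood at 230 CPM in high salt library 7, below the 254 to 259 CPM of the other 3 high salt libraries. That library was also the lowest of its group for Oat, Glul, Slc1a2, Axin2, Tbx3 and Rnf43.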

How the results depend on the processing

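The number of liver genes called, 152 with all libraries, was 1084 with DESeq2 (525 higher and 559 lower, against 90 and 62), 260 with all 14 libraries in 1 fit, 12 with libraries 5 and 6 summed and 52 without normal libraries 1 and 2 together. Without 1 library it ran from 12 (high salt library 6) to 765 (normal library 3). Of the 9 members tested in liver, where 1 was called, DESeq2 called 2, and 0 were called with no filter, with libraries 5 and 6 summed and without normal libraries 1 and 2. Without 1 library the number ran from 0 to 2. Kidney gave 0 genes, and 13 with DESeq2. The interaction gave 0 genes, 142 with DESeq2, 2 with at least 10 counts in every library, 1 without normal liver libraries 1 and 2, and 0 to 7 without 1 library. The cause of these shifts was not tested. Oat passed in 10 of 19 liver alternatives and Gulo in 3, and no other member did. Kidney libraries of the same number did not all deviate together (correlations over genes of 0.41, 0.37 and -0.09). Those of different numbers had correlations from -0.47 to 0.39. With 3 libraries per group these values cannot decide whether the numbers pair them. With the replicate block 0 kidney genes and 0 members were called, and 8 members and 7738 genes differed between the tissues, against 10823 without it. No paired liver fit was possible because the high salt columns carry no number of the labels. Counts of 51 to 285 per liver library limit Axin2 and Lgr5, and 1 to 15 per kidney library limit Axin2, Lgr5 and Gulo.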

Other observations

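In the wider pericentral list 5 genes lay above 0 in liver, and they are named here after their values were seen. Csad, which acts in taurine synthesis, had means of 104 ± 79.001 and 336 ± 130 CPM, normal diet first (SD, n = 4 each), a log2 difference of 1.69 that did not pass (edgeR adjusted p = 0.209). Gstm1, a glutathione transferase, had 764 ± 156 and 1156 ± 124 CPM with no overlap between the diets, a log2 difference of 0.60 (edgeR adjusted p = 0.162). Its relative Gstm3 had 56.8 ± 18.1 and 29.9 ± 4.95 CPM, also with no overlap, a log2 difference of -0.92 (edgeR adjusted p = 0.0879). The reads of these similar genes may have been split between them. Tcf7l2, a TCF factor, had a log2 difference of 0.70, Slc1a4 one of 0.34 and Nr1i3 one of 0.035.

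In kidney 12 of the 18 tested genes of this list lay above 0 with a median of 0.16, against 53.7% of all kidney genes below 0 and a median of -0.025. With edgeR 0 passed and 4 had an unadjusted p under 0.05, against 2.01% of all kidney genes. DESeq2 called 1, higher, in a fit that called 13 of 20203 genes. Without normal kidney library 1, and also without high salt kidney library 3, 9 of the 18 lay above 0. These 4 are named after their values were seen. Cyp2a5 had kidney means of 78.98 ± 28.4 and 311 ± 161 CPM, normal diet first (SD, n = 3 each), with no overlap and a log2 difference of 1.98 (edgeR adjusted p = 0.9996), while its liver value was -1.28. Cyp2e1 also had no overlap, with a log2 difference of 0.56. Every high salt library lay above every normal one in 3.84% of all kidney genes. Aldh1a1 had a log2 difference of 1.53 with overlap. Cyp3a11 went the other way, at -3.55, with normal libraries from 0.20 to 16.1 CPM and high salt libraries from 0.315 to 0.759 CPM. The hepatocyte marker Alb also varied in normal kidney, from 2.70 to 35.7 CPM, against 4.79 to 9.96 CPM on high salt. The part of liver transcripts in the Cyp3a11 value was not tested.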
